A study of Homo sapiens with 9 samples.

Results

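The genes of cholesterol and fatty acid synthesis were followed in HCT116, a human cell line from a colon carcinoma, in which STBD1 had been knocked down and then put back. They were given as a list of 37 genes by pathway, and earlier results of these data were known when the list was chosen. The shares below are therefore not those of a list blind to these data. Each gene was found by symbol and Ensembl identifier among the 58395 genes listed. The list holds 4 genes of SREBP control, 7 of the mevalonate arm, 11 of the sterol branch, 4 of sterol uptake, transport and efflux, 4 of fatty acid synthesis, 6 of fatty acid elongation and desaturation, and LPIN1 of glycerolipid synthesis. All 9 libraries carried the hairpin shSTBD1, plvx neo libraries carried the empty vector as control, and the other groups carried the same vector with hairpin-resistant STBD1 WT or with STBD1 W203C, in which a tryptophan of the LC3-interacting region is a cysteine. Each group had 3 libraries, described as biological replicates, from lentivirally infected cells under drug selection. Whether these came from separate infections is not given in the sources used here, so construct and infected cell pool cannot be told apart. Every group was grown in medium with serum, a source of lipoprotein cholesterol.

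Cells make cholesterol from acetyl-CoA through mevalonate, squalene and lanosterol, and make fatty acids from acetyl-CoA through malonyl-CoA. Both routes are switched on by the SREBP transcription factors, which SCAP carries from the endoplasmic reticulum to the Golgi for cleavage when membrane sterol is low, and which the INSIG proteins hold back when sterol is plentiful. The liver X receptors (LXR) do the opposite for sterol balance, raising genes of sterol export such as ABCA1 and ABCG1.

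In the names of the deposited tables STBD1 WT and STBD1 W203C stand in each other's place compared with the labels. Libraries are called here by their labels, and an exchange of the names would turn each difference between the constructs and trade what each shows against plvx neo. STBD1 summed with its read-through gene FAM47E-STBD1 averaged 4.85 ± 0.751 TPM for plvx neo (a level scaled for transcript length and library total; SD, n = 3), 54.6 ± 2.39 TPM for STBD1 WT and 46.1 ± 2.3 TPM for STBD1 W203C, which sets both constructs apart from the vector. This level alone does not tell the constructs apart by name. Across all genes tested, libraries labelled STBD1 W203C stood nearer to plvx neo, with 859 genes called between them, than those labelled STBD1 WT, with 4254. Which names are right was not tested, and these counts alone do not show it. Libraries held 16.9 to 23.3 M counts. The summed level of 7 epithelial markers was 3798 to 3898 TPM for plvx neo, 3393 to 3528 TPM for STBD1 WT and 3177 to 3437 TPM for STBD1 W203C, with EPCAM and KRT8 abundant and VIL1 at or near 0. These markers did not move together: from plvx neo to STBD1 WT, mean KRT8 went from 1940 to 1451 TPM and KRT18 from 763 to 565 TPM, while KRT19 went from 901 to 1223 TPM and CDH1 from 19.8 to 27.4 TPM. Of 5 fibroblast markers, COL1A1 alone was above 1 TPM, with LUM and DCN at 0 in all 9 libraries, and the leukocyte and endothelial lists summed to at most 1.10 and 0.22 TPM. The part of the epithelial markers and of the unequal STBD1 levels in the results below was not tested, and in bulk RNA fewer cells of a kind and less RNA per cell cannot be told apart.

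Nearly all of the pathway was expressed in these cells. The mean over the 9 libraries was above 10 TPM for 32 of the 37 genes and above 100 TPM for 8, namely SCD, FASN, FDPS, FDFT1, MVD, SREBF1, ACLY and EBP. SCD, the stearoyl-CoA desaturase that makes oleic acid, was the most abundant at 402 TPM. LPIN1, FADS2 and MYLIP lay between 1 and 10 TPM, and the sterol exporters ABCG1 and ABCA1 were below 1 TPM, with ABCA1 lowest at 0.13 TPM. Summed over the 37 genes, plvx neo averaged 2424 ± 20.7 TPM (SD, n = 3), STBD1 WT 3341 ± 14.6 TPM and STBD1 W203C 2809 ± 129 TPM. The lowest and highest libraries were 2406 and 2447 TPM in plvx neo, 3332 and 3358 TPM in STBD1 WT, and 2659 and 2888 TPM in STBD1 W203C, so the 3 groups did not overlap.

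**Figure D1:**
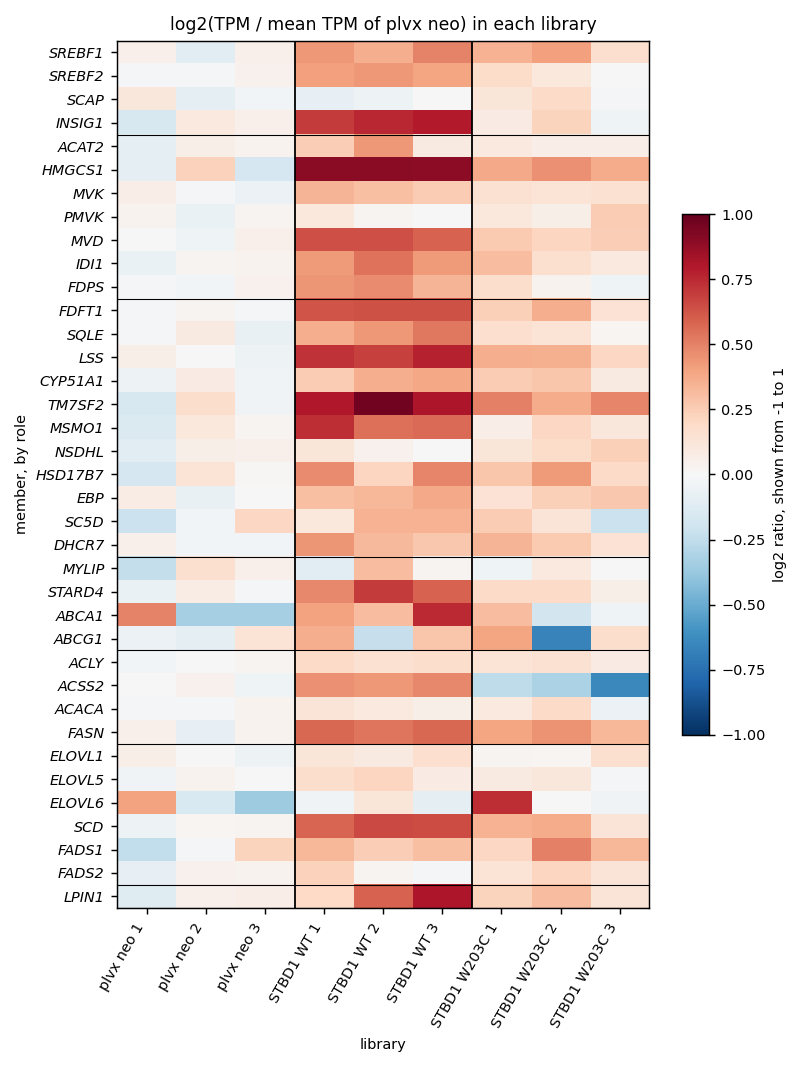
Each row is a gene of the list, in blocks by role, each column a library, and the colour is the log2 ratio of its TPM to the mean TPM of the 3 plvx neo libraries, from blue (lower) to red (higher). STBD1 WT columns are red for most sterol and fatty acid synthesis genes, STBD1 W203C columns are paler, and ACSS2 is blue in all 3 STBD1 W203C libraries.

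STBD1 WT was set against plvx neo to ask what re-expression of STBD1 changed. The synthesis genes were higher with STBD1 WT nearly throughout. Of the 37 genes, all tested, 29 rose, none fell and 8 did not pass (edgeR quasi-likelihood test, Benjamini-Hochberg adjusted p below 0.05 over 15289 genes, called below). Over all genes tested 27.8% were called, 13.9% as higher, against 78.4% of the list as higher. The median log2 fold change of the list was 0.38, against 0.0061 over all genes tested. The rises were moderate: 8 genes were called with a rise of at least 1.5-fold, as were 3.05% of all genes tested. In 28 of the 37 genes every STBD1 WT library lay above every plvx neo library in TPM, as in 15.6% of all genes tested. None was lower at an unadjusted p below 0.05 or by DESeq2 either. On TPM (limma, log2(TPM + 1)), where 11.5% of all genes were called, 21 of the 29 were. This left out ACAT2, HSD17B7, SC5D, ACACA, ELOVL5, ELOVL6, FADS1 and LPIN1.

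**Figure D2:**
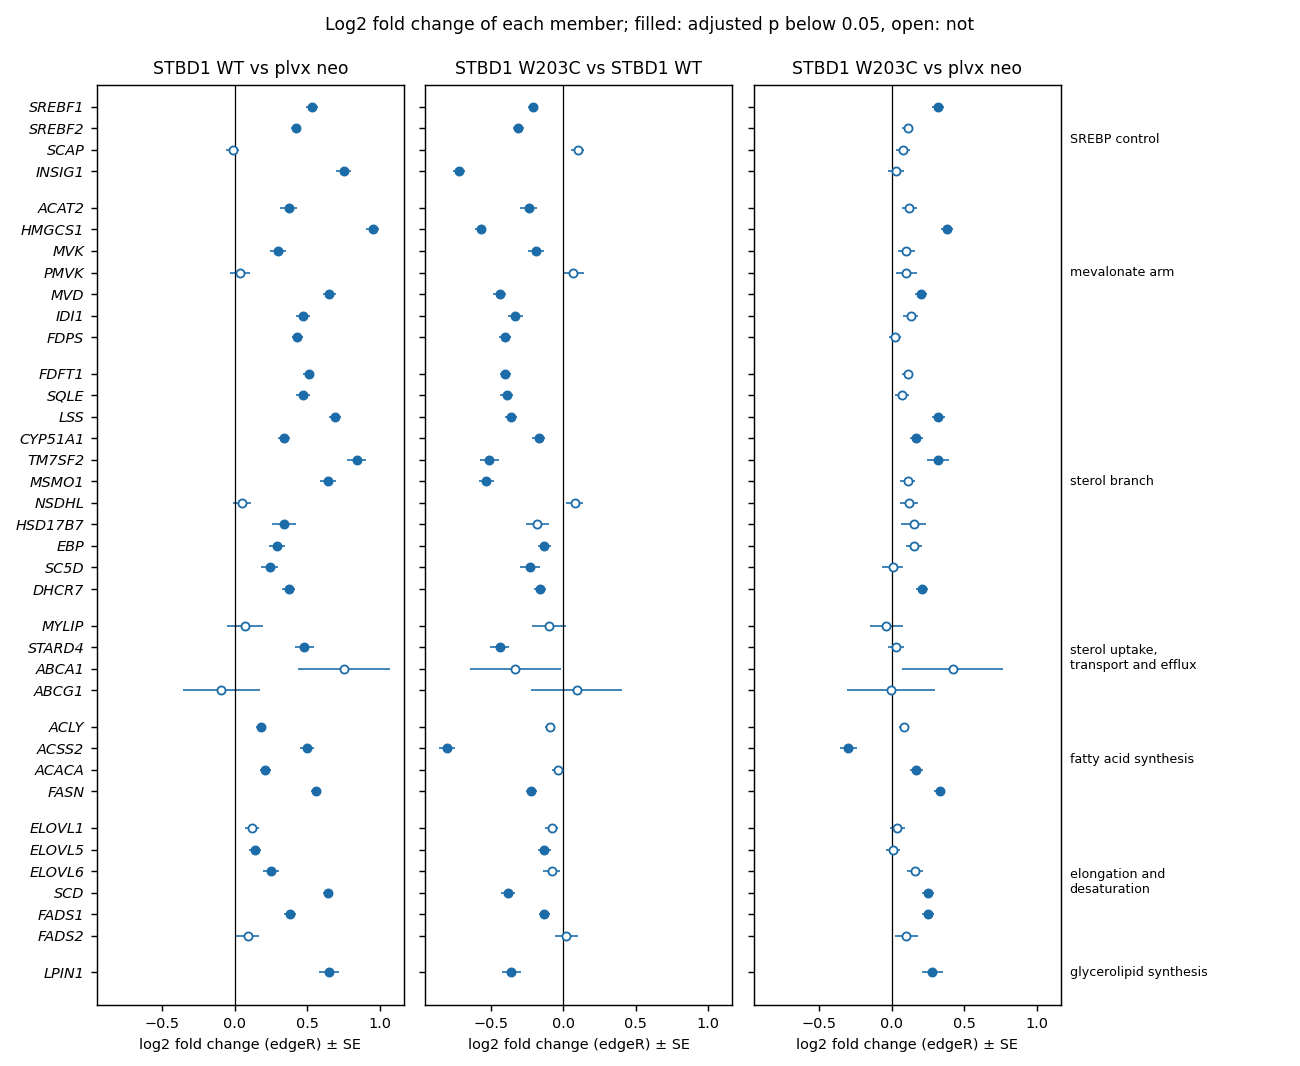
Points are log2 fold changes of the 37 genes by edgeR with bars of 1 SE, in a panel for STBD1 WT vs plvx neo (left), for the constructs against each other (middle) and for STBD1 W203C vs plvx neo (right). Filled points have an adjusted p below 0.05; 29 are filled to the right of 0 in the left panel, 25 to the left of 0 in the middle panel, and 12 to the right and 1 (ACSS2) to the left in the right panel.

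Among the SREBP control genes 3 of 4 rose with STBD1 WT. INSIG1, the retention protein that is itself an SREBP target, read 41.8, 49.9 and 48.3 TPM in plvx neo, 75.8, 78.5 and 80.7 TPM in STBD1 WT, and 49.3, 54.4 and 45.4 TPM in STBD1 W203C. STBD1 WT libraries stood above all others, while plvx neo and STBD1 W203C overlapped. Its log2 fold change in STBD1 WT vs plvx neo was 0.75 (SE 0.0499, edgeR adjusted p = 1.12e-09). SREBF1, which encodes the factor mainly tied to fatty acid genes, read 109, 98.0 and 109 TPM in plvx neo, 142, 136 and 149 TPM in STBD1 WT, and 135, 140 and 119 TPM in STBD1 W203C. Both constructs lay above plvx neo and overlapped each other. The log2 fold change of SREBF1 in STBD1 WT vs plvx neo was 0.53 (SE 0.0421, edgeR adjusted p = 1.13e-08). SREBF2, which encodes the factor mainly tied to sterol genes, read 68.9, 69.0 and 72.3 TPM in plvx neo, 92.9, 94.8 and 92.0 TPM in STBD1 WT, and 79.7, 75.6 and 70.3 TPM in STBD1 W203C. It was highest in the STBD1 WT libraries without overlap, with a log2 fold change of 0.42 over plvx neo (SE 0.0351, edgeR adjusted p = 2.59e-08). SCAP, the escort protein, was at 30.6 ± 2.27, 29.8 ± 0.871 and 32.8 ± 2.48 TPM (SD, n = 3) in plvx neo, STBD1 WT and STBD1 W203C, and passed in none of the 3 comparisons.

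In the mevalonate arm, which turns acetyl-CoA into farnesyl diphosphate, 6 of 7 genes rose with STBD1 WT. HMGCS1, the cytosolic HMG-CoA synthase (ENSG00000112972, minus strand of chromosome 5 from 43287470 to 43313512, hg38), read 48.2, 60.4 and 45.9 TPM in plvx neo, 96.0, 96.3 and 95.9 TPM in STBD1 WT, and 67.1, 70.8 and 66.5 TPM in STBD1 W203C. The groups did not overlap in either direction, and the rise with STBD1 WT was the largest called in the list at 1.93-fold (log2 0.95, SE 0.0454, edgeR adjusted p = 5.55e-12). MVD, the decarboxylase that makes isopentenyl diphosphate, read 108, 105 and 112 TPM in plvx neo, 169, 169 and 162 TPM in STBD1 WT, and 130, 125 and 128 TPM in STBD1 W203C. The 3 groups were again apart, with a log2 fold change of 0.65 for STBD1 WT over plvx neo (SE 0.0449, edgeR adjusted p = 1.84e-09). IDI1 rose by 0.47, FDPS by 0.43, ACAT2 by 0.37 and MVK by 0.30 on the log2 scale. PMVK, the phosphomevalonate kinase between MVK and MVD in the route, was at 27.6 ± 1.12 TPM in plvx neo and 28.5 ± 1.12 TPM in STBD1 WT (SD, n = 3) and was not called.

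In the sterol branch, from farnesyl diphosphate to cholesterol, 10 of 11 genes rose with STBD1 WT. TM7SF2, a sterol reductase whose exons overlap those of VPS51, read 14.9, 18.9 and 16.3 TPM in plvx neo, 29.0, 32.5 and 29.3 TPM in STBD1 WT, and 23.7, 21.5 and 23.4 TPM in STBD1 W203C. The groups were apart, and the log2 fold change for STBD1 WT over plvx neo was 0.84 (SE 0.0676, edgeR adjusted p = 1.71e-08). LSS, which closes the lanosterol ring system, read 39.3, 37.7 and 36.5 TPM in plvx neo, 62.3, 60.8 and 64.4 TPM in STBD1 WT, and 48.7, 48.3 and 43.6 TPM in STBD1 W203C. It too kept the 3 groups apart, with a log2 fold change of 0.69 for STBD1 WT over plvx neo (SE 0.0401, edgeR adjusted p = 1.56e-10). MSMO1, a sterol methyl oxidase, read 38.4, 45.5 and 43.2 TPM in plvx neo, 70.6, 62.1 and 62.6 TPM in STBD1 WT, and 44.3, 48.9 and 45.8 TPM in STBD1 W203C. Only STBD1 WT stood apart for MSMO1, at a log2 fold change of 0.64 over plvx neo (SE 0.055, edgeR adjusted p = 3.87e-08). SQLE, the squalene epoxidase, read 37.2, 40.2 and 35.7 TPM in plvx neo, 48.5, 51.0 and 54.3 TPM in STBD1 WT, and 42.3, 41.5 and 38.2 TPM in STBD1 W203C. STBD1 WT was above both other groups, which overlapped, with a log2 fold change of 0.47 over plvx neo (SE 0.0458, edgeR adjusted p = 2.05e-07). The other risers ran from SC5D at 0.24 through EBP at 0.29, HSD17B7 and CYP51A1 at 0.34 and DHCR7 at 0.37 to FDFT1, the squalene synthase, at 0.51. HSD17B7 has a near-identical pseudogene copy, so its level is uncertain. NSDHL was not called, at 24.9 ± 1.63 TPM in plvx neo and 25.8 ± 1.15 TPM in STBD1 WT (SD, n = 3).

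The promoters of the listed genes, of every role, were searched for a pair of motifs, and neither was in all of them. RefSeq windows of GRCh38.p14, from 250 bases before to 50 bases after a gene start, were found for 32 of the 37 genes, in 44 windows, and not for ACAT2, FDFT1, ABCG1, FASN and SQLE. CCAAT, the box bound by NF-Y, which acts together with SREBP, was searched on both strands and stood in 24 of the 32 genes and in 63.6% of the 44 windows, against 34.6% of all 35116 windows. It occurred at least 2 times in 40.9% of the windows of the list and in 10.8% of all windows. Of the genes that rose with STBD1 WT, 20 of 25 with a window held it, and of the others 4 of 7. The core of the classical sterol regulatory element, TCACNCCAC, was matched in SREBF2 alone. That is 1 of the 44 windows (2.27%), against 1.13% of all windows, and no match says only that these letters are not in the window. Printed 5′ to 3′ along each gene's strand are SREBF2, which held that core, INSIG1, and 3 enzyme genes of the sterol route with 2 to 4 copies of CCAAT. These genes were picked by name, and all of them rose with STBD1 WT. MVK, which rose, and NSDHL, which was not called, each held 5 copies, and SREBF1 and LPIN1, which rose, held 0. Capitals mark CCAAT, its reverse complement ATTGG and the core of the element, which read TCACCCCAC in SREBF2 and began 133 bases before the gene start. HMGCS1 had 2 windows, of which the one with more copies is shown.
SREBF2 promoter, chr22:41832855-41833154, plus strand: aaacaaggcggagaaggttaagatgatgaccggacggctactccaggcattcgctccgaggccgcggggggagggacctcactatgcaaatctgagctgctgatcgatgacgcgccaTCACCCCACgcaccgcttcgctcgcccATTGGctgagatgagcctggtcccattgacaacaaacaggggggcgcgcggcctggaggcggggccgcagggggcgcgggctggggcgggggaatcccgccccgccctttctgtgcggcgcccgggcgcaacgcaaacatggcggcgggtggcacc
INSIG1 promoter, chr7:155297628-155297927, plus strand: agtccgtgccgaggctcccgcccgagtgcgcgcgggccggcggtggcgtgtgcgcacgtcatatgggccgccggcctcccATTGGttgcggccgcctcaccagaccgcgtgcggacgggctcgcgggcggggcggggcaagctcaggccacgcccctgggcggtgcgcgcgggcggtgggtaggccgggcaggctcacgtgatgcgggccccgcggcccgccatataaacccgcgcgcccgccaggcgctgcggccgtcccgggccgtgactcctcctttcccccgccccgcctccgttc
HMGCS1 promoter, chr5:43313363-43313662, minus strand: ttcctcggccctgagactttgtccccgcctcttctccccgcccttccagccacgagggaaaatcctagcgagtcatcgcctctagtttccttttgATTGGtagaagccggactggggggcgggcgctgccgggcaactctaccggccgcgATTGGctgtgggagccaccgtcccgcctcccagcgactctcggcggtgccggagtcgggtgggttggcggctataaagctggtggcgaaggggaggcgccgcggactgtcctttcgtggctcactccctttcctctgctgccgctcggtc
MVD promoter, chr16:88663042-88663341, minus strand: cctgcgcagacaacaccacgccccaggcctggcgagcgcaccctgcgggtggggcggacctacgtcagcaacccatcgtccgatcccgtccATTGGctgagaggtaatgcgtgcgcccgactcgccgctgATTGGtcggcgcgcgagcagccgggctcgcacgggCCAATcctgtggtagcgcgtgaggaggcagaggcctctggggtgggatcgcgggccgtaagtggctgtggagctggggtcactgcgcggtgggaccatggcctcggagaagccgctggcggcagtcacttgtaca
MSMO1 promoter, chr4:165327419-165327718, plus strand: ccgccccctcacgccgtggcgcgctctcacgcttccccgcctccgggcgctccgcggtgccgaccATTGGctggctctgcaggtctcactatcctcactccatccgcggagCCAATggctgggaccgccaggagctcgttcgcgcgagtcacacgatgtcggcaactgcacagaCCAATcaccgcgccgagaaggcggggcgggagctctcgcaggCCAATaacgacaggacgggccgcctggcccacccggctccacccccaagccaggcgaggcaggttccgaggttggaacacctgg

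Fatty acid synthesis moved with the sterol genes in STBD1 WT, and all 4 of its genes rose. FASN, the fatty acid synthase (ENSG00000169710, minus strand of chromosome 17 from 82078338 to 82098294), read 283, 258 and 280 TPM in plvx neo, 407, 397 and 407 TPM in STBD1 WT, and 359, 375 and 344 TPM in STBD1 W203C. The groups did not overlap, with a log2 fold change of 0.56 for STBD1 WT over plvx neo (SE 0.035, edgeR adjusted p = 5.49e-10). ACSS2, which makes acetyl-CoA from acetate, read 32.0, 33.0 and 31.1 TPM in plvx neo, 44, 43.1 and 44.6 TPM in STBD1 WT, and 26.8, 25.6 and 20.5 TPM in STBD1 W203C. It was the single gene of the list whose mean was lowest in STBD1 W203C and highest in STBD1 WT. In STBD1 WT vs plvx neo its log2 fold change was 0.50 (SE 0.0491, edgeR adjusted p = 2.21e-07). ACACA, the acetyl-CoA carboxylase, and ACLY, the ATP citrate lyase, rose less, by 0.21 and 0.18 on the log2 scale.

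Among elongases and desaturases 4 of 6 rose with STBD1 WT. SCD read 309, 325 and 326 TPM in plvx neo, 480, 505 and 503 TPM in STBD1 WT, and 408, 414 and 351 TPM in STBD1 W203C. The groups were apart, and the log2 fold change for STBD1 WT over plvx neo was 0.64 (SE 0.0352, edgeR adjusted p = 6.49e-11). FADS1 rose by 0.38, ELOVL6 by 0.25 and ELOVL5 by 0.14, whereas ELOVL1 (0.12, edgeR adjusted p = 0.0594) and FADS2 (0.089, edgeR adjusted p = 0.443) did not pass. The rise of ELOVL6 was in counts, and its mean was 23.5 TPM in both groups. FADS1 and FADS2 overlap on opposite strands, and 19 of the 37 genes have an exon that overlaps another gene. Among the 19 are also SREBF1, SREBF2, HMGCS1, FDFT1, LSS and LPIN1. Use of strand in the counting is not given in the sources used here, so the levels of these genes are uncertain.

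LPIN1, a phosphatidate phosphatase of triglyceride and phospholipid synthesis, read 6.42, 7.22 and 7.29 TPM in plvx neo, 8.0, 10.5 and 12.2 TPM in STBD1 WT, and 8.15, 8.63 and 7.61 TPM in STBD1 W203C. Both constructs were above plvx neo, and the STBD1 WT libraries spread widely and overlapped those of STBD1 W203C. By counts its log2 fold change for STBD1 WT over plvx neo was 0.65 (SE 0.0714, edgeR adjusted p = 1.2e-06). Of the genes of sterol uptake, transport and efflux, STARD4, a cytosolic sterol carrier, rose, from 19.4 ± 0.944 to 29.2 ± 2.22 TPM (SD, n = 3; log2 fold change 0.48). ABCA1 was close to the limit of detection, at 0.16, 0.09 and 0.09 TPM in plvx neo, 0.15, 0.14 and 0.19 TPM in STBD1 WT, and 0.14, 0.10 and 0.11 TPM in STBD1 W203C. These values come from 14 to 32 reads per library, the groups overlapped, and the log2 fold change of 0.75 for STBD1 WT over plvx neo did not pass (SE 0.317, edgeR adjusted p = 0.0878). ABCG1, at 0.717 ± 0.0643 and 0.8 ± 0.166 TPM, and MYLIP, an E3 ubiquitin ligase induced by LXR, at 5.31 ± 0.723 and 5.64 ± 0.839 TPM in plvx neo and STBD1 WT (SD, n = 3), did not pass either.

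**Figure D3:**
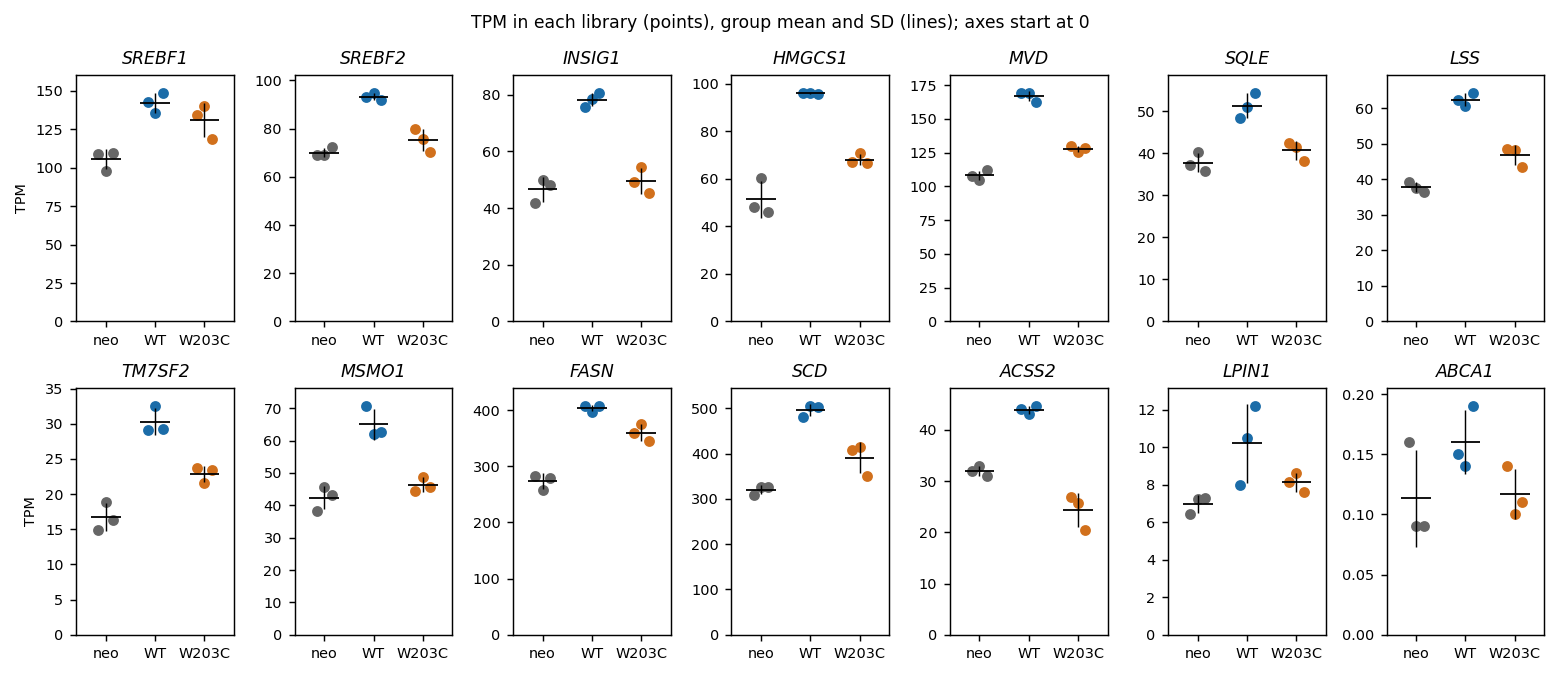
Points are the TPM of each library for 14 named genes in plvx neo (neo), STBD1 WT (WT) and STBD1 W203C (W203C), with the group mean as a horizontal line and SD as a vertical line, on axes from 0. STBD1 WT points lie above all plvx neo points in every panel except ABCA1, and ACSS2 shows STBD1 W203C below plvx neo.

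STBD1 W203C was set against STBD1 WT to ask what the change in the LC3-interacting region did. The synthesis genes were lower with STBD1 W203C. Of the 37 genes, 25 fell, none rose and 12 did not pass (edgeR quasi-likelihood test over 15052 genes). Over all genes tested 27.9% were called and 13.4% as lower, against 67.6% of the list as lower. The median log2 fold change of the list was -0.22, against -0.0078 over all genes tested. In 17 of the 37 genes every STBD1 W203C library lay below every STBD1 WT library in TPM, as in 11.8% of all genes tested. At an unadjusted p below 0.05 SCAP alone was higher, and none was by DESeq2. This comparison shares its STBD1 WT libraries with the one above, so the directions of the pair are not independent. On TPM (limma) or with effective transcript lengths in the edgeR fit 15 of the 25 calls were left, among them neither SREBF1 nor LPIN1. Of all genes, 12.1% were called on log2(TPM + 1) and 10.5% with effective transcript lengths.

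The largest falls were in ACSS2 and INSIG1, the 2 of the 25 called genes that fell by at least 1.5-fold. Of all genes tested, 2.8% were called with such a fall. ACSS2 fell by 0.80 on the log2 scale (SE 0.0544, edgeR adjusted p = 1.08e-09), from 43.9 ± 0.758 to 24.3 ± 3.34 TPM (SD, n = 3). INSIG1 fell by 0.72 (SE 0.0429, edgeR adjusted p = 1.9e-10), to 49.7 ± 4.53 TPM from 78.3 ± 2.45 TPM (SD, n = 3), which put its mean within the range of plvx neo. HMGCS1 fell by 0.57 (SE 0.0381, edgeR adjusted p = 9.22e-10), MSMO1 by 0.53 (SE 0.0522, edgeR adjusted p = 2.31e-07) and TM7SF2 by 0.51 (SE 0.0675, edgeR adjusted p = 8.9e-06).

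By role, 3 of 4 SREBP control genes fell, with SREBF2 at -0.31 and SREBF1 at -0.21 (edgeR adjusted p = 3.64e-06 and 0.000167). In the mevalonate arm 6 of 7 fell, from MVK at -0.19 to HMGCS1, and PMVK was again not called. In the sterol branch 9 of 11 fell, from EBP at -0.13 to MSMO1, with LSS at -0.36 and SQLE at -0.39 (edgeR adjusted p = 2.58e-06 and 1.55e-06). On the fatty acid side 2 of 4 synthesis genes fell, ACSS2 and FASN (-0.22, edgeR adjusted p = 0.000245), while ACLY (-0.091, adjusted p = 0.0561) and ACACA (-0.04, adjusted p = 0.507) did not pass. SCD (-0.38, edgeR adjusted p = 3.26e-06), ELOVL5 (-0.13) and FADS1 (-0.13, adjusted p = 0.0222) fell among elongases and desaturases. For FADS1 the sign turned on TPM, to 0.051 (limma, log2(TPM + 1)), and with effective transcript lengths, to 0.015. LPIN1 fell by 0.36 (edgeR adjusted p = 0.000269), STARD4 by 0.44 (edgeR adjusted p = 2.31e-05), and ABCA1, ABCG1 and MYLIP did not pass, at -0.33, 0.092 and -0.10.

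Setting STBD1 W203C against plvx neo showed how far the construct with the changed residue stood from the vector. Of the 37 genes, 12 rose, 1 fell and 24 did not pass (edgeR quasi-likelihood test over 15081 genes). Over all genes tested 5.7% were called, 3.03% as higher and 2.67% as lower, against 32.4% and 2.7% of the list. The median log2 fold change of the list was 0.12, against -0.0031 over all genes tested. No gene of the list was called with a change of at least 1.5-fold, as 0.69% of all genes tested were. In 20 of the 37 genes every STBD1 W203C library lay above every plvx neo library in TPM, as in 14.7% of all genes tested, and in 1 gene below, as in 5.48%. These calls depended on the fit: 2 of 13, MVD and FASN, were left on TPM (limma) and FASN alone with effective transcript lengths, where 0.869% and 0.789% of all genes were called. Without STBD1 W203C replicate 3, 17 genes of the list were called.

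HMGCS1 rose most, by 0.38 on the log2 scale (SE 0.0441, edgeR adjusted p = 3.99e-06), followed by FASN at 0.33 (SE 0.0362, edgeR adjusted p = 1.24e-06). LSS, SREBF1 and TM7SF2 each rose by 0.32 (SE 0.0454, 0.042 and 0.0745, with edgeR adjusted p = 4.85e-05, 1.99e-05 and 0.0101). LPIN1 rose by 0.28, SCD and FADS1 by 0.25, DHCR7 by 0.21, MVD by 0.20, and ACACA and CYP51A1 by 0.17. ACSS2 fell by 0.30 (SE 0.0587, edgeR adjusted p = 0.00185), and all 3 STBD1 W203C libraries lay below the plvx neo libraries. SREBF2 (0.11, SE 0.0368, edgeR adjusted p = 0.0869), INSIG1 (0.026, SE 0.0552, adjusted p = 0.862), MSMO1 (0.11, SE 0.0519, adjusted p = 0.261) and SQLE (0.073, SE 0.0484, adjusted p = 0.443) did not pass. None of the 4 genes of sterol uptake, transport and efflux passed by edgeR or DESeq2, none had an unadjusted p below 0.05, and ABCA1 was at 0.42 with an SE of 0.347.

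**Figure D4:**
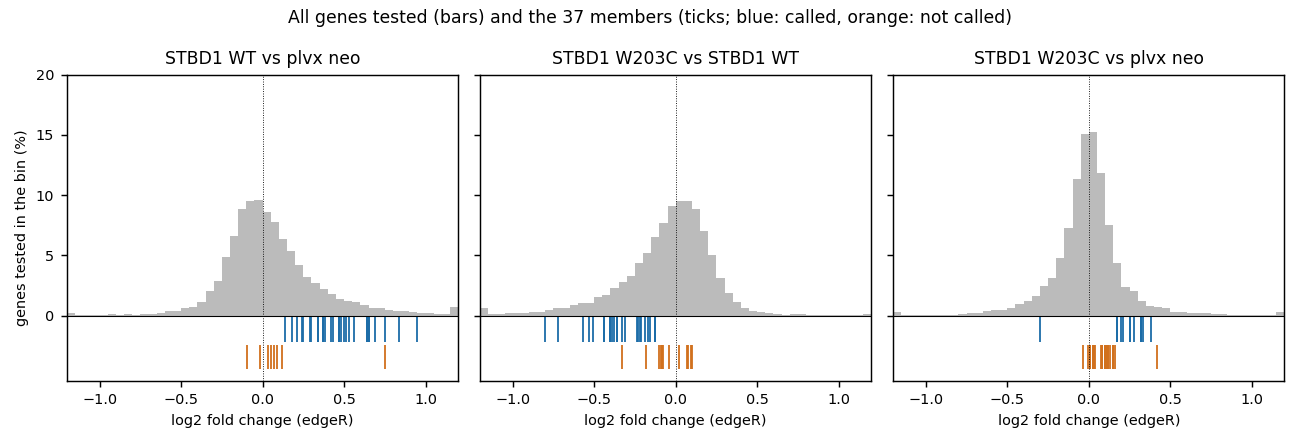
Grey bars give the percent of all genes tested in each bin of log2 fold change (edgeR, bins of 0.05, values beyond 1.2 in the end bins), and ticks below 0 mark the 37 genes of the list, blue where called and orange where not. The ticks lie mostly right of 0 for STBD1 WT vs plvx neo (median 0.38) and mostly left of it for STBD1 W203C vs STBD1 WT (median -0.22). For STBD1 W203C vs plvx neo they lie right of 0 for 34 of the 37 genes, by less (median 0.12).

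Put side by side, the mean TPM ran from plvx neo through STBD1 W203C up to STBD1 WT in 30 of the 37 genes. In 5 genes it ran from plvx neo through STBD1 WT up to STBD1 W203C, and ACSS2 and SCAP had orders of their own. These orders were not counted over all genes, so 30 of 37 has no background share beside it. By calls, 13 genes were higher in STBD1 WT than in plvx neo, lower in STBD1 W203C than in STBD1 WT, and not called between STBD1 W203C and plvx neo: SREBF2, INSIG1, ACAT2, MVK, IDI1, FDPS, FDFT1, SQLE, MSMO1, EBP, SC5D, STARD4 and ELOVL5. A further 11 were also called higher in STBD1 W203C than in plvx neo: SREBF1, HMGCS1, MVD, LSS, CYP51A1, TM7SF2, DHCR7, FASN, SCD, FADS1 and LPIN1. ACLY, HSD17B7 and ELOVL6 were called in STBD1 WT vs plvx neo alone, ACACA was higher in both constructs than in plvx neo, and 8 genes were called in no comparison (SCAP, PMVK, NSDHL, MYLIP, ABCA1, ABCG1, ELOVL1 and FADS2). Over all genes tested 27.8% were called in STBD1 WT vs plvx neo, 27.9% between the constructs and 5.7% in STBD1 W203C vs plvx neo. The share of all genes with each pattern of calls was not computed, so whether a pattern is particular to the list was not tested. These 3 comparisons share libraries, and a call in 1 comparison and not in another does not show that their effects differ.

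The neighbouring genes of the same pathways, 67 in 3 further lists of which 61 passed the filter on low counts, had medians nearer 0. Between STBD1 WT and plvx neo 18 of the 61 rose and 4 fell (29.5% and 6.56%, against 13.9% of all genes in each direction), with a median log2 fold change of 0.08. Of other genes of SREBP control and sterol synthesis 5 of 16 rose and 1 fell, led by ERG28 (0.29), a scaffold of the sterol demethylation enzymes, CYB5R3 (0.24), a reductase, and INSIG2 (0.24). Of other genes of sterol uptake, transport and LXR 4 of 17 rose and none fell, led by LIPA (0.33), the lysosomal acid lipase, GRAMD1A (0.31) and NPC1 (0.30), both sterol transporters. Of other genes of fatty acid and glycerolipid synthesis 9 of 28 rose and 3 fell, led by LPIN3 (0.40), SLC25A1 (0.39), the mitochondrial citrate carrier, and FADS3 (0.32). Between the constructs 6 of the 61 rose and 12 fell (9.84% and 19.7%, against 14.5% and 13.4% of all genes), with a median of -0.054.

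INSIG2, the other retention protein, fell most among the called genes of its list in STBD1 W203C vs STBD1 WT, at -0.56 (SE 0.0819, edgeR adjusted p = 3e-05). It read 13.4, 9.22 and 15 TPM in plvx neo, 16.8, 14.5 and 15.3 TPM in STBD1 WT, and 9.90, 10.1 and 9.33 TPM in STBD1 W203C. Every STBD1 W203C library lay below every STBD1 WT library, and plvx neo overlapped both. PAQR3 rose by 0.19, NPC1, GRAMD1A and LIPA fell by 0.33, 0.24 and 0.22, LPIN3 fell by 0.38 and FADS3 by 0.33, and HACD2, a dehydratase of fatty acid elongation, rose by 0.32. Against plvx neo 5 of the 61 rose with STBD1 W203C and 1 fell (8.2% and 1.64%, against 3.03% and 2.67% of all genes), with a median of 0.015. INSIG2 fell there too, at -0.32 (SE 0.0824, edgeR adjusted p = 0.0192), and none of 17 genes of sterol uptake, transport and LXR were called by edgeR, with NR1H3 and LPCAT3 higher and RXRB and NPC2 lower at an unadjusted p below 0.05. ME1, the malic enzyme that supplies NADPH, rose by 0.28, MID1IP1, an activator of acetyl-CoA carboxylase, by 0.21 and ACSL5, an acyl-CoA synthetase, by 0.21.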

How the data were processed

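RNA of 9 HCT116 libraries in 3 groups was sequenced as read pairs, and the 37 genes and the 3 further lists were chosen with earlier results of these data known. The authors removed low-quality reads, aligned the rest to hg38 (Ensembl release 93) with STAR 2.7.1a and quantified them with RSEM 1.3.1. The deposited expected counts of each gene need not be whole and were rounded. The deposited TPM were scaled by the authors' RSEM run to effective length and library total. The deposited tables also give that effective length in bases, which was used as an offset in an alternative fit.

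Groups and replicate numbers came from the sample titles. Symbols matched 57754 of 58395 identifiers (98.9%), positions came from GENCODE 44 on hg38, and promoter windows from RefSeq. For each comparison its 6 libraries were fitted alone with edgeR 4.0.16 in R 4.3.3 (filterByExpr, TMM, glmQLFit, glmQLFTest, two-sided). A Benjamini-Hochberg adjusted p below 0.05 over all genes tested was a call. SE is the log2 fold change over the square root of F. The biological coefficient of variation was 4.05% to 4.21%, and replicates differed by more than sampling noise (chi-square per gene 2.12 to 3.87). The code was tested on simulated data.

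Every gene of the list is accounted for by role. Values in each library are given for the called genes of each comparison that rose most (5) and fell most (5), and always for SREBF1, SREBF2, INSIG1, HMGCS1, SQLE, FASN, SCD, ABCA1 and LPIN1. Of each further list the 3 called genes with the largest change are named, except for an item not reported here. Alternatives were DESeq2 1.42.0 (the authors used DESeq2 in other versions), its size factors, no filter, limma 3.58.1 on log2(TPM + 1) and log2(TPM + 0.1), all 9 libraries in the fit, a replicate block, offsets for effective length or GC content and length, an adjusted p below 0.01, and each library left out.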

Additional observations from a re-analysis of the deposited data

How the results depend on the processing

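The count of 29 called genes in STBD1 WT vs plvx neo ranged from 21 to 31 over the alternatives, and 21 of the 29 were called in all of them. The share of all genes called ranged from 11.4% to 29.5%, against 27.8% in the main fit. In STBD1 W203C vs STBD1 WT, 25 became 15 on log2(TPM + 1), 15 on log2(TPM + 0.1) and 15 with effective length offsets, and 14 of the 25 were called in every alternative. In STBD1 W203C vs plvx neo, 13 became 2, 2 and 1 under those settings, and FASN alone was called in every alternative. Calls over all genes fell too. Under those settings they were 12.1%, 12% and 10.5% between the constructs, against 27.9% in the main fit. In STBD1 W203C vs plvx neo they were 0.869%, 0.763% and 0.789%, against 5.7%. The cause of these falls was not tested. Leaving out 1 library gave 28 to 29, 21 to 24 and 9 to 17 calls, and ended at least once the call of ELOVL5 between STBD1 WT and plvx neo, of MVK, EBP, SC5D, DHCR7, ELOVL5 and FADS1 between the constructs, and of CYP51A1, TM7SF2, ACACA and LPIN1 in STBD1 W203C vs plvx neo. Same-numbered libraries showed little shared deviation (r across genes -0.0124 to 0.0677 over 9 pairs, against -0.102 to 0.0743 over 18 differently numbered pairs), so the numbers were not taken to pair them; with the replicate block the counts were 30, 22 and 14. With GC content and length offsets the counts were 31, 28 and 16, and 29.5%, 28.6% and 7.47% of all genes were called. SCAP was then called, lower in STBD1 WT than in plvx neo and higher in STBD1 W203C than in STBD1 WT.

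Signs turned in these cases, in log2 fold change, all of genes not called in that comparison except FADS1, and ranges are over the fits that each left out 1 library. In STBD1 WT vs plvx neo, SCAP ranged from -0.037 to 0.0045, PMVK from -0.0088 to 0.077 and MYLIP from -0.087 to 0.15. PMVK became -0.0041 and -0.003 with GC content and length offsets without and with the replicate block, and ABCG1 0.065, 0.13 and 0.13 on both TPM scales and with effective lengths. Between the constructs, MYLIP, ABCG1, ACACA and FADS2 ranged from -0.18 to 0.054, from -0.18 to 0.36, from -0.067 to 0.0071 and from -0.027 to 0.077. On both TPM scales and with effective lengths, ABCG1 became -0.061, -0.14 and -0.12, ELOVL6 0.23, 0.24 and 0.23, and FADS1 0.051, 0.052 and 0.015. In STBD1 W203C vs plvx neo, INSIG1 ranged from -0.025 to 0.095, FDPS from -0.015 to 0.05, SC5D from -0.056 to 0.091, STARD4 from -0.023 to 0.075, ELOVL5 from -0.015 to 0.053, MYLIP from -0.14 to 0.021 and ABCG1 from -0.28 to 0.26. On TPM MYLIP was 0.02 and 0.025 and ABCG1 0.0038, and with effective lengths ABCG1 was 0.01.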

Other observations

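For a few genes the level per length and the counts did not tell the same story, because the effective transcript length that RSEM estimated varied between libraries. ELOVL6, which elongates palmitate, had effective lengths of 2004, 3101 and 3346 bases in plvx neo, 3010, 3127 and 3315 bases in STBD1 WT, and 1957, 3153 and 2878 bases in STBD1 W203C. Its TPM was highest in the first library of plvx neo (31.0) and of STBD1 W203C (39.1), the libraries with the shortest estimates, while its counts were 1168, 1269 and 1095 in plvx neo and 1328, 1183 and 1123 in STBD1 W203C. The highest effective length over the lowest was 1.71 for ELOVL6, 2.14 for ABCA1 and 1.80 for ABCG1, and 1.00 for SCD. The transcript isoforms behind these estimates were not analysed here.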
